A study of Mus musculus with 63 samples.

Results

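Both arms of the miR-142a and miR-223 hairpins were followed in sRNA-Seq of sorted mouse kidney cells. The members are mmu-miR-142a-3p, mmu-miR-142a-5p, mmu-miR-223-3p and mmu-miR-223-5p, found as the rows of the microRNA count table that carry these names, which are 4 of 2110 rows with 1966 mature names. The row of miR-142b, counted from the opposite strand of the miR-142a hairpin, is not a member. The study asked which miRNAs mark a kidney cell type and stay enriched in it through injury and repair. Male C57BL/6 mice of 8 to 12 weeks had a sham operation (sham), unilateral ureteric obstruction for 2 days (UUO-2) or 7 days (UUO-7), or 7 days of obstruction followed by 14 days after reimplantation of the ureter (R-UUO). Endothelial cells (ECs, CD45-CD31+), macrophages with high F4/80 (Macs, CD45+), proximal tubular cells (PT cells, binding the lectin LTL) and PDGFR-β+ stromal cells were sorted from the digested cortex of each of 16 mice, 4 per condition. There are 63 libraries, 4 per cell type and condition except for 3 of PDGFR-β+ cells at UUO-7, where the authors removed 1 outlier. The labels name no transgene, and the sequenced mice were those whose level of the injury marker KIM-1 lay nearest the mean of their group, so that the spread between them may be narrower than in all operated mice.

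A miRNA hairpin is cut by Dicer into a duplex of a 5p and a 3p arm, and the arm that is loaded into Argonaute pairs with target mRNAs through its seed. miR-142 is made across the blood-forming lineages, including macrophages, granulocytes and lymphocytes, and its hairpin is known for giving functional miRNAs from both arms. miR-223 is abundant in granulocytes, monocytes and macrophages, where its 3p arm is the usual guide strand, restrains granulocyte production and targets the inflammasome sensor Nlrp3. ECs, epithelial cells and fibroblasts are not usual sources of either.

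The mature sequences are given because each arm was counted separately and because the strand of miR-142b bears on one of them. They come from RefSeq (GRCm38.p6), are written 5′ to 3′, and their capitals mark the seed, bases 2 to 8.
mmu-miR-142a-5p: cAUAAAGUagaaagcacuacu
mmu-miR-142a-3p: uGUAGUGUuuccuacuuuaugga
mmu-miR-223-5p: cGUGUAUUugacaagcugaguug
mmu-miR-223-3p: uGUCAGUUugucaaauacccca
mmu-miR-142b: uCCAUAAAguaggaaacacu
The 4 members have 4 different seeds. Of the 1675 names of the table that could be matched to RefSeq, no name outside the members shares one of them. All 20 bases of miR-142b are complementary to miR-142a-3p.

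On the hairpins, where capitals mark the 5p and then the 3p arm, the arms are 15 bases apart in miR-142a and 19 in miR-223.
Mir142: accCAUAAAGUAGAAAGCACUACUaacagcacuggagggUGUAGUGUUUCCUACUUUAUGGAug
Mir223: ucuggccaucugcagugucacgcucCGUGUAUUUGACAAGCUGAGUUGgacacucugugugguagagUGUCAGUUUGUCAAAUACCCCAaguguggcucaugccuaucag
In GRCm38, miR-142a-5p lies at chr11:87756867-87756887 and miR-142a-3p at chr11:87756903-87756925, both on the plus strand. GENCODE places this hairpin in an intron of the long noncoding RNA Mir142hg, with the protein-coding gene Tspoap1 as the nearest at 3614 bases. miR-223-5p lies at chrX:96242842-96242864 and miR-223-3p at chrX:96242884-96242905, also on the plus strand, in an exon of the noncoding gene F630028O10Rik and 4277 bases from Vsig4.

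The rows of miR-142a-3p and miR-142b carry nearly the same reads. Over 63 libraries miR-142a-3p had 70734 counts and miR-142b 70568, equal in 47 libraries and never larger for miR-142b, with a largest difference of 17 counts in a library. Whether the counting used the strand is not stated in the sources used here, so that reads of the 2 rows cannot be told apart, and the value of miR-142a-3p stands for both. miR-142a-5p lies outside the miR-142b row and has no such partner.

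Total counts ranged from 2792366 to 10819385 in ECs, from 1106651 to 6912556 in Macs, from 616565 to 5093294 in PT cells and from 1905053 to 8769219 in PDGFR-β+ cells. Levels are given in CPM, the count of a locus relative to its library's total, after TMM scaling, which corrects for differences in composition between libraries. The scaling ran over all libraries where cell types are compared and within 1 cell type where conditions are compared, so that the CPM of the 2 kinds differ. The sorted cells carried the miRNAs of their type. Summed over the marker list of a cell type, miR-126a reached 93100 to 173200 CPM in ECs and at most 3524 elsewhere, 3 tubular miRNAs (miR-192, miR-194 and miR-215) 16090 to 130300 in PT cells and at most 5217 elsewhere, and 4 stromal miRNAs (miR-143, miR-145a, miR-199a and miR-214) 78660 to 395100 in PDGFR-β+ cells and at most 45630 elsewhere. The tubular sum is nearly all miR-192-5p (median 57050 CPM in PT cells), and miR-215-5p does not mark PT cells here, with a median of 1.28 CPM and 0 in 5 libraries, beside 1.61 to 2.27 in the other cells. miR-511, which is made from an intron of the macrophage mannose receptor gene, was at 87.7 to 219 CPM in Macs.

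The members were macrophage miRNAs in this set of cells, and miR-142a-5p was far the most abundant of them. It made up 2.22 to 5.99% of the reads of a Mac library, with a median of 123044 counts (24604 to 360099) and a median rank of 7.5 among all loci. miR-223-3p had a median of 8237 counts in Macs (1125 to 20080, 0.102 to 0.407% of reads), miR-142a-3p 3838 (589 to 9147) and miR-223-5p 929.5 (256 to 1329). For each of the 4 members, the lowest Mac library had more than the highest library of any other cell type.

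Outside Macs, miR-142a-5p was still read with 130 to 1404 counts in PDGFR-β+ cells, 70 to 577 in PT cells and 107 to 1032 in ECs. miR-223-3p had 8 to 304, 3 to 25 and 4 to 67 counts in the same order. miR-142a-3p had 2 to 93, 0 to 12 and 0 to 41. These are low counts, and miR-223-5p was lower still, with at most 10 in any library of these cells and 0 in 5 EC, 6 PT and 4 PDGFR-β+ libraries. A count of 0 allows up to 3 counts, which correspond to 0.331 to 1.16 CPM in PDGFR-β+ cells, 0.755 to 4.89 in PT cells and 0.272 to 1.13 in ECs. Reads without molecular identifiers are not independent molecules, so such limits cover counting error only.

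**Figure D1:**
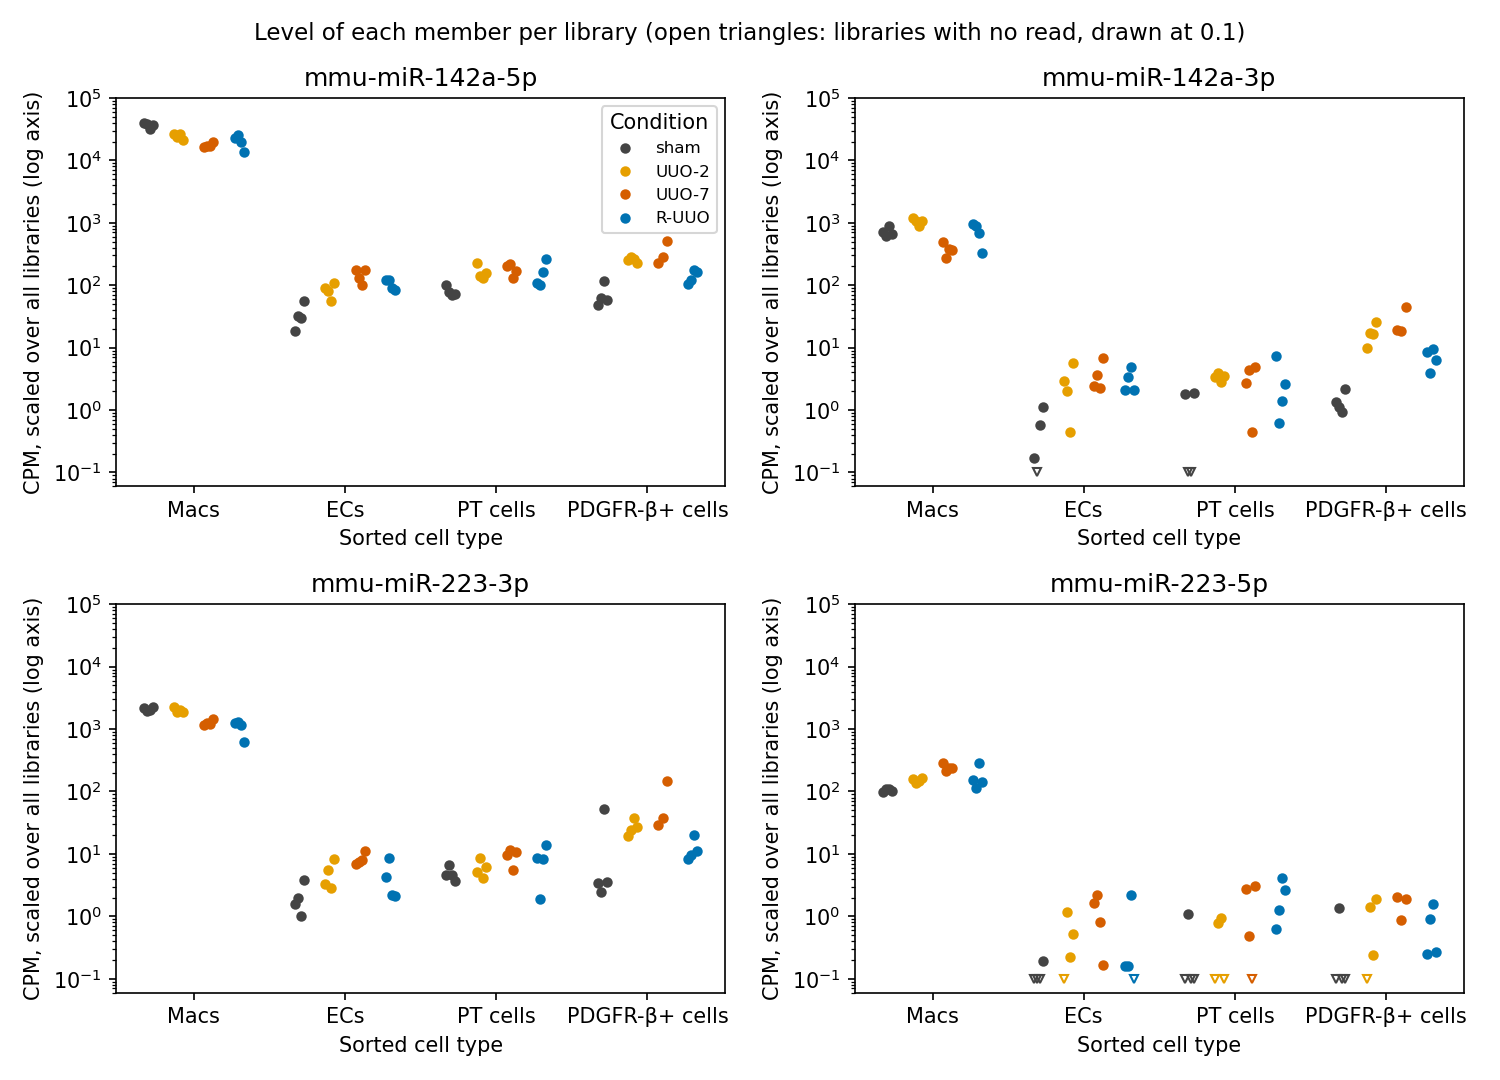
Level of each member (CPM scaled over all libraries, log axis) in the 63 libraries, by cell type and condition, 1 point per library, with open triangles at 0.1 for libraries without a read. The Mac libraries lie above all others for all 4 members, from a median of 150 CPM for miR-223-5p to 23170 CPM for miR-142a-5p, and miR-223-5p is at or near 0 outside Macs.

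In CPM, the median of miR-142a-5p was 23170 in Macs, 176 in PDGFR-β+ cells, 137 in PT cells and 89.9 in ECs. The order was the same for miR-223-3p (1670, 19.8, 6.45 and 4.06), for miR-142a-3p (705, 9.49, 2.68 and 2.18) and for miR-223-5p (150, 0.862, 0.707 and 0.179). The test of differences between cell types was edgeR's quasi-likelihood test in 1 fit of the 63 libraries, with Benjamini-Hochberg adjustment over the 671 loci past the filter on low counts, and called at an FDR under 0.05 and a fold change above 1.5. All 4 members were called higher in Macs than in ECs, by log2 8.19 (miR-142a-5p) to 8.84 (miR-223-5p), where 32.3% of loci were called higher in Macs. Against PT cells the 4 differences were log2 7.41 to 8.17, with 28.9% of loci called. Against PDGFR-β+ cells they were 6.00 (miR-223-3p) to 7.56 (miR-223-5p), with 32.8% of loci called. The differences of miR-223-5p rest on 32, 27 and 47 reads in total over all EC, PT and PDGFR-β+ libraries. Within ECs, PT cells or PDGFR-β+ cells alone miR-223-5p did not pass the filter, so it entered this fit through its Mac libraries. Its calls are therefore not separate support for a higher level in Macs. miR-142a-3p did not pass the filter within PT cells.

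The order among the other cell types was less firm. PDGFR-β+ cells were called above ECs for all 4 members, by log2 2.11 for miR-142a-3p, 1.09 for miR-142a-5p, 2.45 for miR-223-3p and 1.27 for miR-223-5p (FDR 0.033), where 40.2% of loci were called either way. With the mouse as a replicate block the last of these was 1.14 (FDR 0.053) and no longer called. PT cells were above ECs for miR-142a-5p (log2 0.78), while the differences of miR-142a-3p (0.29, 95% interval -0.45 to 1.03), miR-223-3p (0.61, -0.05 to 1.27) and miR-223-5p (1.16, -0.34 to 2.66) did not pass, with 68.6% of loci called. PDGFR-β+ cells were above PT cells for miR-142a-3p (1.82) and miR-223-3p (1.84), and the differences of miR-142a-5p (0.31, FDR 0.042, a fold of 1.24) and miR-223-5p (0.11, -1.01 to 1.24) did not pass, with 63.2% of loci called. PT cells against ECs depended on the scaling: with library sizes alone all 4 members were called higher in PT cells.

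Macs kept their excess in every condition, but its size differed. Against the mean of the other 3 cell types, miR-142a-5p was higher in Macs by log2 9.31 in sham (27.1% of loci called higher in Macs), 7.32 at UUO-2 (28%), 6.39 at UUO-7 (25%) and 7.26 after reversal (24%). miR-142a-3p was higher by 9.70, 7.66, 5.82 and 7.46, and miR-223-3p by 8.63, 7.77, 6.17 and 7.16. miR-223-5p had differences of 9.04, 7.89, 7.46 and 7.71, resting in sham on 1, 1 and 5 reads in ECs, PT cells and PDGFR-β+ cells. All 16 of these differences were called, and each member's was smallest at UUO-7. Those of miR-223-5p come from a member that entered the fit through its Mac libraries and are not separate support. The level changed with the condition in Macs and in the other cells.

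The loci whose level followed a member most closely were ranked over all libraries, and their own levels are not given here. By Pearson correlation of log2 CPM over 63 libraries, which share their depth and scaling and fall into cell types, the 3 nearest to miR-142a-5p were miR-5107-3p (0.96), miR-6537-3p (0.96) and miR-3964 (0.94). miR-6537-3p was nearest to the other 3 members as well (0.92 to 0.95). Within the 16 Mac libraries the likeness was different. miR-3964 kept a correlation of 0.89 with miR-142a-5p, 0.79 with miR-223-3p and 0.75 with miR-142a-3p, whereas miR-6537-3p had 0.18 to 0.38 with the 4 members. Among the members themselves, miR-142a-5p and miR-223-3p varied together in Macs (0.83), the arms of miR-142a less so (0.55), and miR-223-5p ran against miR-142a-5p (-0.78) and against the other arm of its own hairpin (-0.49). The correlations within Macs run over all conditions, so they include the changes between conditions given below and are not separate from them.

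In Macs, obstruction was accompanied by a lower miR-142a-5p and a higher miR-223-5p. miR-142a-5p was at 60920, 59050, 52160 and 54590 CPM in the sham Macs, 44260, 42210, 46180 and 39580 at UUO-2, 28590, 29780, 31130 and 29570 at UUO-7, and 37880, 40580, 30120 and 23380 in R-UUO. Every obstructed or reversed library lay below every sham library, and the UUO-7 libraries were the tightest group (29770 ± 1050, SD, n = 4, against 56680 ± 4014 in sham). The change at UUO-2 was log2 -0.40 (SE 0.13, FDR 0.028), which is under the fold of 1.5, and it was called only without sham replicate 3 (-0.62), UUO-2 replicate 2 (-0.59) or UUO-2 replicate 3 (-0.59). miR-142a-5p fell by 0.93 on the log2 scale at UUO-7 (SE 0.13, FDR 2.18e-05) and by 0.78 in R-UUO (SE 0.13, FDR 0.000175), and R-UUO differed from UUO-7 by 0.15 (FDR 0.42). All 3 contrasts use the same 4 sham libraries.

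miR-223-3p, the main arm of its hairpin, was at 3397, 3080, 3238 and 3297 CPM in sham Macs and at 3800, 3428, 3459 and 3526 at UUO-2, a change of 0.13 (FDR 0.58). At UUO-7 it was at 2049, 2180, 2226 and 2227, and in R-UUO at 2088, 2102, 1820 and 1069. All 8 of these later libraries lay below the sham range. The change at UUO-7 was -0.58 (SE 0.16, FDR 0.0048), a fold of 1.499 just short of 1.5, and it was past that fold in each fit that left out 1 of the 8 libraries. miR-223-3p fell by 0.88 in R-UUO (SE 0.16, FDR 0.000285), and without the lowest library, R-UUO replicate 5, the call remained.

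miR-223-5p, the less abundant arm, went the other way. It was at 152, 175, 176 and 148 CPM in sham Macs, 268, 245, 258 and 307 at UUO-2, 508, 368, 441 and 361 at UUO-7, and 250, 182, 437 and 243 in R-UUO. The groups after injury did not overlap with sham at any of the 3 times. miR-223-5p rose by log2 0.73 at UUO-2 (SE 0.21, FDR 0.013), 1.37 at UUO-7 (SE 0.21, FDR 4.6e-05) and 0.77 in R-UUO (SE 0.21, FDR 0.0078), and R-UUO differed from UUO-7 by log2 -0.59 (FDR 0.048). The R-UUO call was lost without R-UUO replicate 4 (0.32, FDR 0.14) and without sham replicate 1 (0.62, FDR 0.054), and that of R-UUO against UUO-7 in 7 of the 8 fits that left out 1 library.

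miR-142a-3p was above sham at UUO-2 and below it at UUO-7, with calls that depended on the processing. It was at 1128, 957, 1423 and 981 CPM in sham Macs, 2030, 1927, 1564 and 1992 at UUO-2, 851, 480, 717 and 567 at UUO-7, and 1601, 1412, 1059 and 560 in R-UUO. The UUO-2 libraries were all above sham, the UUO-7 libraries all below it, and R-UUO spread over both ranges. miR-142a-3p rose by log2 0.74 at UUO-2 (SE 0.25, FDR 0.032), fell by 0.78 at UUO-7 (SE 0.25, FDR 0.016), and differed by 0.05 in R-UUO (FDR 0.93), while R-UUO was higher than UUO-7 by 0.83 (FDR 0.023). This last call was lost without UUO-7 replicate 3 or 5 or R-UUO replicate 1 or 2 (0.70 to 0.84). The UUO-2 call was lost in every fit that left out 1 library, and the UUO-7 call with the replicate numbers as a block (-0.57, FDR 0.069).

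**Figure D2:**
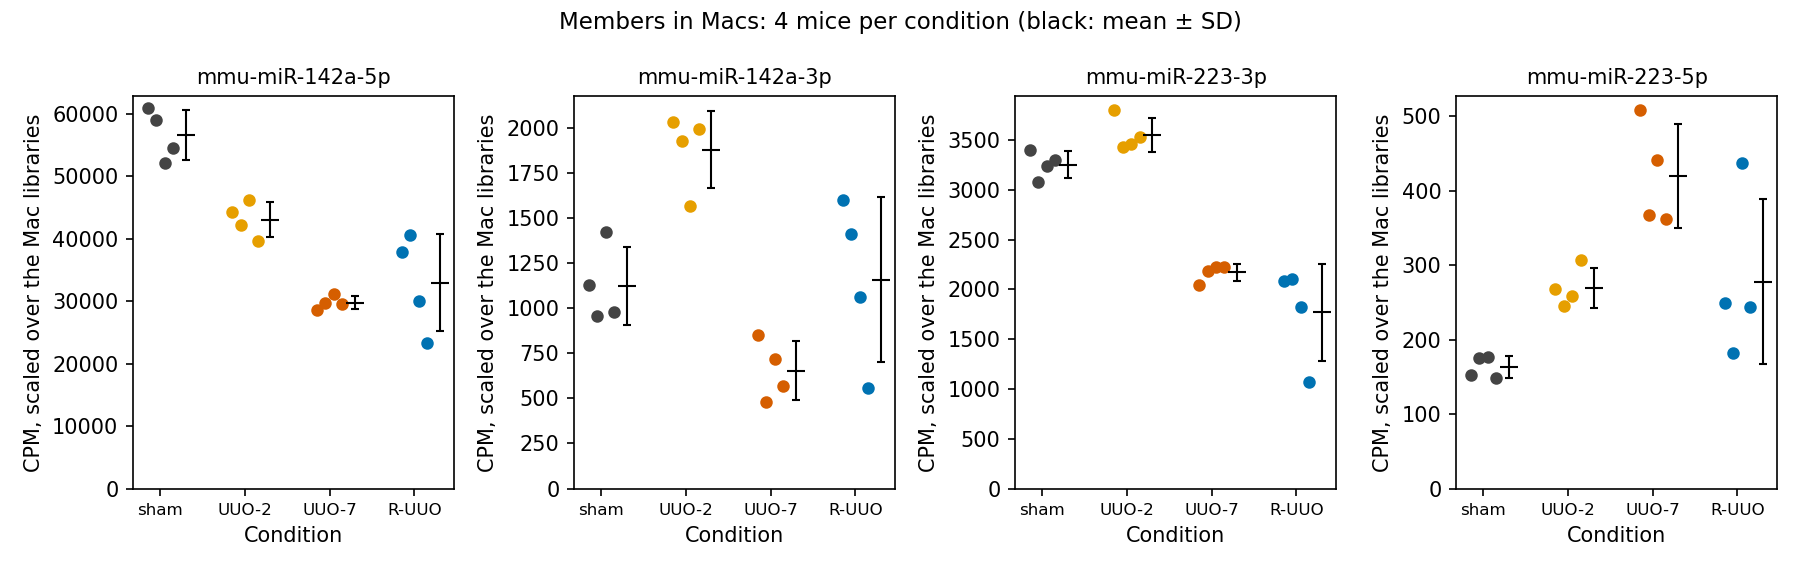
Level of the 4 members in Macs by condition (CPM scaled over the Mac libraries), 1 point per mouse, with the mean and SD in black. miR-142a-5p lies lower in every injured group than in sham, miR-223-5p higher, miR-223-3p lower at UUO-7 and in R-UUO, and miR-142a-3p is highest at UUO-2.

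Of the 4 members in Macs, 2 were called at UUO-2, where 27.6% of loci were called either way, 3 at UUO-7 (43.1%), 3 in R-UUO (31.9%) and 2 in R-UUO against UUO-7 (19.9%). For levels, the share of all loci without overlap with sham is not given here, in Macs or in the other cells. A lack of overlap of a member therefore describes its own libraries only. The smaller changes depended on the scaling of the libraries. The UUO-2 calls of miR-142a-3p and miR-223-5p were lost in each of the 8 fits that left out 1 library (log2 0.49 to 0.69 and 0.53 to 0.59), and over the 16 possible reference libraries of the TMM scaling they were made with 5 and 13. The falls of miR-142a-5p at UUO-7 and in R-UUO and the rise of miR-223-5p at UUO-7 were made with all 16. The change of miR-223-3p at UUO-7, just short of the fold above, was called with 14 of the 16 (log2 -0.84 to -0.53). The median locus moved by 0.15, 0.22 and 0.12 in Macs at UUO-2, UUO-7 and R-UUO (by 0.30, 0.36 and 0.03 with library sizes alone), so that relative to it the members' changes lie lower by these amounts.

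The ratio of 2 members within a library does not depend on the scaling. In the miR-223 hairpin, 22.3, 17.6, 18.4 and 22.3 reads of the 3p arm were found per read of the 5p arm in the sham Macs, 14.2, 14.0, 13.4 and 11.5 at UUO-2, 4.03, 5.93, 5.05 and 6.17 at UUO-7, and 8.36, 11.6, 4.17 and 4.40 in R-UUO. No library after injury reached the sham range. The log2 ratio of 3p over 5p differed from sham by -0.60 (UUO-2), -1.94 (UUO-7) and -1.63 (after reversal), each with p = 0.0286 by a 2-sided exact permutation test, the smallest that 4 against 4 mice allow, and 0.049 after adjustment over the 12 ratios tested in Macs. With 1 of the 8 mice left out, the adjusted p rose above 0.05 in 8 of 8 cases at UUO-2, 4 of 8 at UUO-7 and 7 of 8 in R-UUO (3 against 4 mice), to at most 0.086. R-UUO did not differ from UUO-7 by this test (0.31, adjusted exact permutation p = 0.47), and within R-UUO the ratios of replicates 1 and 2 were higher than those of replicates 4 and 5.

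In the miR-142a hairpin the 5p arm was the larger one, with 54.0, 61.7, 36.7 and 55.7 reads per read of the 3p arm in sham Macs. At UUO-2 the values were 21.8, 21.9, 29.5 and 19.9, all under the sham range, and the log2 ratio of 3p over 5p was 1.15 higher (SE 0.21, exact permutation p = 0.0286, adjusted 0.049, and 0.057 to 0.076 with any 1 mouse left out). At UUO-7 they were 33.6, 62.0, 43.4 and 52.2, overlapping with sham (0.13, adjusted exact permutation p = 0.63), and in R-UUO 23.7, 28.7, 28.4 and 41.8 (0.77, adjusted 0.076). For the miR-142a arms only the shift at UUO-2 was called, while in R-UUO all libraries but that of replicate 5 also lay under the sham range. The shift of the miR-223 arms was larger at UUO-7 than at UUO-2, with no overlap between the 2 groups. UUO-2 was not tested against the later times, and the share of hairpins without overlap between them is not given here.

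Among the 113 hairpins with both arms counted in Macs, the arm ratio of miR-223 was the 10th most shifted at UUO-7, where the median absolute log2 shift was 0.56 and 28.3% of hairpins did not overlap with sham. The shift of miR-142a at UUO-2 ranked 16th, with a median of 0.37 and 18.6% without overlap. In the other comparisons the ranks were lower. The shift of miR-223 ranked 38th at UUO-2 and 14th in R-UUO, where the median was 0.54 and 16.8% of hairpins did not overlap. That of miR-142a ranked 98th at UUO-7 and 38th in R-UUO. For R-UUO against UUO-7 the ranks were 73 (miR-223) and 43 (miR-142a). These ranks were computed after the members' values were seen. Between the hairpins, miR-223-3p had 3.01, 3.22, 2.28 and 3.36 reads per read of miR-142a-3p in sham Macs, 1.87, 1.78, 2.21 and 1.77 at UUO-2, 2.41, 4.54, 3.11 and 3.93 at UUO-7, and 1.30, 1.49, 1.72 and 1.91 in R-UUO. The log2 ratio was lower at UUO-2 (-0.63) and in R-UUO (-0.89, adjusted exact permutation p = 0.049 for each) and at UUO-7 it was 0.21 above sham with overlap.

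**Figure D3:**
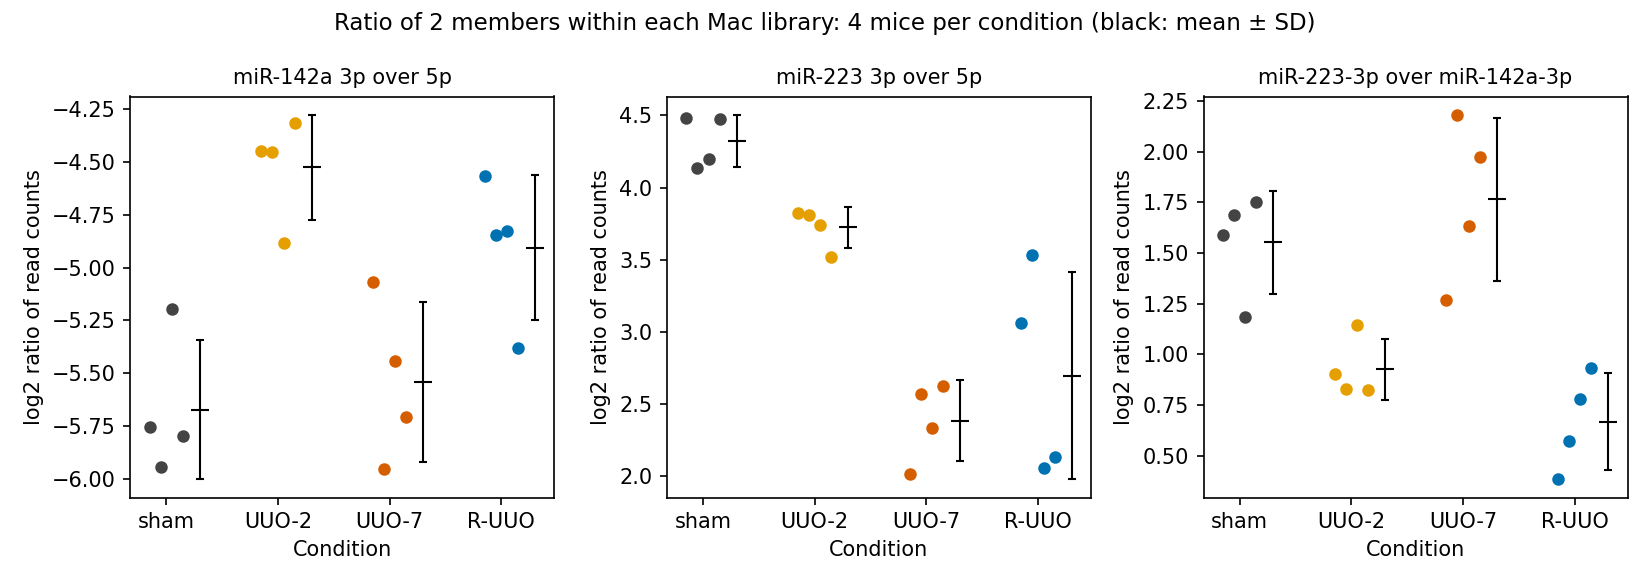
Log2 ratios within each Mac library by condition (miR-142a 3p over 5p, miR-223 3p over 5p and miR-223-3p over miR-142a-3p), 1 point per mouse, with the mean and SD in black. The miR-223 ratio is lower after injury, by -1.94 at UUO-7, and the miR-142a ratio is highest at UUO-2.

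Other miRNAs known from leukocytes changed in the same Mac libraries. Of a list of 14 (both arms of miR-155, miR-146a, miR-150, miR-342, miR-511 and miR-21a, with miR-146b-5p and miR-147-3p), 4 rose and 2 fell at UUO-2, 8 rose and 1 fell at UUO-7 and 6 rose and 1 fell in R-UUO. Of all 457 loci tested in Macs, 84 rose and 42 fell at UUO-2, 120 and 77 at UUO-7, and 98 and 48 in R-UUO. The median log2 change of the list was 0.20, 1.02 and 0.80, beside 0.15, 0.22 and 0.12 for all loci. At UUO-7 the risers were miR-155-3p (2.67) and miR-155-5p (1.29), which are induced in activated macrophages, miR-147-3p (2.10), miR-146b-5p (1.75) and miR-21a-3p (1.31), which rise with inflammation, and miR-150-5p, miR-150-3p and miR-511-3p (0.74). miR-146a-5p, a feedback inhibitor of NF-κB signaling, fell by 1.19. miR-142a-5p, miR-142a-3p and miR-223-3p were thus lower at UUO-7 while most of this list was higher, and miR-223-5p was among the higher ones.

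Markers of other cell types moved with the condition in Macs. miR-150, an abundant lymphocyte miRNA, summed to 92.4 to 166 CPM in sham Macs, 235 to 410 at UUO-2, 456 to 747 at UUO-7 and 146 to 617 in R-UUO (both arms), and miR-150-5p rose by log2 1.46, 2.36 and 1.57 (FDR 0.0030, 2.81e-05 and 0.0013). In ECs the same sum was higher, at 1067 to 3666 CPM, so that miR-150 is not particular to lymphocytes here. The endothelial miR-126a-3p and miR-126a-5p were not called in Macs in any comparison. The 4 red cell miRNAs summed to 280 to 571 CPM in Macs and 40.8 to 166 in the other cells, with miR-451a, the defining one, at 0 to 8.16 CPM in every library. miR-451a rose in Macs at UUO-2 (log2 3.68, FDR 0.00081) and miR-486a-5p at UUO-7 (0.62, FDR 0.014). Of the stromal miRNAs, miR-214-3p rose by 0.96 at UUO-2, 3.82 at UUO-7 and 3.83 after reversal, and 1 locus of miR-199a-5p by 1.65 at UUO-7 and 3.49 in R-UUO, where miR-145a-5p (2.23) and miR-143-3p (1.08) rose as well. The tubular miR-192-5p fell by 1.18 at UUO-7 and by 1.32 in R-UUO, with 1 locus of miR-194-5p falling at both times, and miR-215-5p fell by 1.72 at UUO-7. In sorted bulk libraries, a change in the cells that passed the gate and a change in the RNA per cell cannot be told apart, and the part of these markers in the members' changes was not tested.

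In ECs, which line the vessels, miR-142a-5p was called higher than in sham at all 3 times, from a low level. miR-142a-5p was at 11.1, 20.5, 18.5 and 34.4 CPM in sham, 66.8, 58.2, 35.2 and 72.7 at UUO-2, 125, 92.9, 64.7 and 110 at UUO-7, and 85.7, 71.7, 63.0 and 57.4 in R-UUO. No library after injury reached down into the sham range. The rises were log2 1.46 at UUO-2 (SE 0.31, FDR 0.017), 2.22 at UUO-7 (SE 0.31, FDR 0.000119) and 1.72 in R-UUO (SE 0.31, FDR 0.000795), and R-UUO differed from UUO-7 by -0.50 (FDR 0.30). The UUO-2 call was lost without sham replicate 2 or 3 or UUO-2 replicate 1 or 4 (1.38 to 1.47).

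miR-142a-3p had 1, 0, 4 and 6 reads in the sham EC libraries, 7, 7, 2 and 11 at UUO-2, 9, 13, 11 and 41 at UUO-7, and 13, 21, 9 and 13 in R-UUO. On these low counts it rose by log2 3.10 at UUO-7 (FDR 0.012) and 2.71 in R-UUO (FDR 0.017), and had 2.56 at UUO-2 (FDR 0.15). miR-223-3p had 9, 13, 7 and 20 reads in sham, 8, 19, 13 and 16 at UUO-2, 25, 27, 39 and 67 at UUO-7 and 27, 54, 4 and 13 in R-UUO, with a rise of 2.12 at UUO-7 (FDR 0.0073) and 1.38 (FDR 0.20) and 1.18 (FDR 0.083) at the other times. The last of these was called without sham replicate 4 (1.72, FDR 0.026) or R-UUO replicate 5 (1.52, FDR 0.036). Of the 3 members past the filter in ECs, 1 was called at UUO-2, where 1.71% of loci were called, 3 at UUO-7 (11.5%), 2 in R-UUO (16.8%) and 0 in R-UUO against UUO-7 (1.07%). miR-223-5p did not pass the filter and had 1 read over the 4 sham libraries, 6 at UUO-2, 19 after 7 days of obstruction and 6 in R-UUO. miR-511 lay between 0.163 and 2.07 CPM in all EC libraries, near the level of 3 counts. Of the markers, miR-145a-5p rose by 1.34 and miR-192-5p fell by 0.79 in R-UUO, and their part was not tested. miR-150 was higher in ECs (1067 to 3666 CPM) than in Macs, with no call of either arm in any comparison.

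In PT cells, the reabsorbing cells of the first tubule segment, miR-142a-5p was at 120, 89.5, 80.3 and 87.3 CPM in sham, 265, 161, 152 and 174 at UUO-2, 216, 249, 145 and 184 at UUO-7, and 133, 110, 196 and 295 in R-UUO. The UUO-2 and UUO-7 libraries lay above sham, and R-UUO overlapped with it. It rose by log2 0.99 (FDR 0.024), 1.07 (FDR 0.0072) and 0.96 (FDR 0.015), and R-UUO differed from UUO-7 by -0.12. All 3 calls were lost when the libraries were scaled by their totals alone. The R-UUO value rested partly on replicate 5, without which it was 0.57 (FDR 0.082), and without UUO-2 replicate 1 the UUO-2 value was 0.76 (FDR 0.10). Without sham replicate 2, 3 or 4 neither was called (0.88 to 0.98), nor was UUO-2 without its replicate 4 (1.01).

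miR-223-3p had 5, 6, 6 and 4 reads in the sham PT libraries, 6, 11, 9 and 7 at UUO-2, 21, 24, 25 and 24 at UUO-7 and 14, 3, 6 and 16 in R-UUO, and its changes of 0.25, 0.83 and 0.69 were not called. Of the 2 members past the filter in PT cells, 1 was called in each comparison with sham, where 19.1% (UUO-2), 43% (UUO-7) and 38.8% (R-UUO) of loci were called, and 0 in R-UUO against UUO-7 (1.52%). miR-142a-3p, with 0 to 12 reads, and miR-223-5p, with 0 to 7, did not pass the filter. Both arms of miR-511 had no read in any sham or UUO-2 PT library and summed to at most 2.75 CPM at the later times. At 3 counts the limit in those 8 libraries was 1.59 to 3.83 CPM, so that miR-511 at the share of the Mac level that miR-142a-5p had there would not have been detectable. Markers of other types moved in the same libraries. The tubular miR-192-5p fell by 0.94, 1.62 and 1.50 on the log2 scale (UUO-2, UUO-7, R-UUO), both loci of miR-194-5p fell at the later times, and the stromal miR-145a-5p (2.92, 2.56 and 4.29) and miR-143-3p (1.66, 1.99 and 2.03) rose. In R-UUO the endothelial miR-126a-3p rose as well (1.21), and the part of these markers in the change of miR-142a-5p was not tested.

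PDGFR-β+ cells, the pericytes and fibroblasts that deposit matrix in fibrosis, had called rises of both miR-142a arms at all 3 times. miR-142a-5p was at 35.2, 55.4, 88.3 and 45.5 CPM in sham, 220, 230, 213 and 179 at UUO-2, 162, 217 and 406 at UUO-7, and 85.2, 88.0, 123 and 134 in R-UUO. The 7 libraries of obstruction lay above every sham library, and 2 of the 4 R-UUO libraries lay inside the sham range. It rose by log2 1.91 at UUO-2 (SE 0.31, FDR 0.00085), 2.22 at UUO-7 (SE 0.33, FDR 4.81e-05) and 0.94 in R-UUO (SE 0.30, FDR 0.020), and R-UUO was below UUO-7 by log2 -1.28 (FDR 0.032). The R-UUO call was lost without sham replicate 1 (0.75) or 4 (0.86) or R-UUO replicate 4 (0.80).

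miR-142a-3p was at 0.982, 0.964, 0.712 and 1.75 CPM in sham PDGFR-β+ cells, which are 2 to 7 reads a library, and at 8.61, 13.8, 13.5 and 20.0 at UUO-2, 13.9, 14.1 and 35.9 at UUO-7, and 6.83, 2.85, 6.63 and 5.14 in R-UUO. All libraries after injury were above all sham libraries. It rose by log2 3.65 (SE 0.47, FDR 9.44e-05), 4.25 (SE 0.49, FDR 4.65e-06) and 2.29 (SE 0.47, FDR 0.0010), and R-UUO was below UUO-7 by log2 -1.97 (SE 0.43, FDR 0.017). Without UUO-7 replicate 5, the highest library, the differences of R-UUO from UUO-7 were -1.36 for miR-142a-3p (FDR 0.16) and -0.81 for miR-142a-5p (FDR 0.33). Without R-UUO replicate 2 they were -1.76 and -1.20 and not called, and for miR-142a-5p the call was also lost without replicate 4 of either group (-1.38).

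miR-223-3p was uneven in these cells. It was at 2.53, 2.17, 39.9 and 2.80 CPM in sham, 16.9, 19.3, 30.9 and 21.1 at UUO-2, 21.0, 28.4 and 117 at UUO-7, and 6.63, 7.03, 13.8 and 9.0 in R-UUO. Sham replicate 3 stood above the other sham libraries, above all of UUO-2 and R-UUO and above 2 of the 3 UUO-7 libraries. With it the changes were 0.94 (FDR 0.52), 2.26 (SE 0.86, FDR 0.038) and -0.32 (FDR 0.77), and without it they were 3.12 (FDR 0.0038), 4.43 (FDR 5.06e-05) and 1.85 (FDR 0.017). Without UUO-7 replicate 5 the change at UUO-7 was 1.08 (FDR 0.36), and without sham replicate 1, 2 or 4 it was 1.87 to 1.94 and not called.

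In sham replicate 3 the high value belonged to miR-223-3p and not to miR-142a-3p. This library had 112 reads of miR-223-3p and 2 of miR-142a-3p, 56.0 per read, while the other sham libraries of these cells had 1.60 to 2.57. Its miR-142a-5p, at 88.3 CPM, was the highest of the sham group. miR-223-5p had 5, 12, 15 and 15 reads in all over the libraries of sham, UUO-2, UUO-7 and reversal and did not pass the filter.

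Of the 3 members past the filter in PDGFR-β+ cells, 2 were called at UUO-2, where 6.29% of loci were called, 3 at UUO-7 (48.2%), 2 in R-UUO (41.7%) and 2 in R-UUO against UUO-7 (3.98%). The median locus of these cells moved by 0.15, 0.50 and 0.40 at UUO-2, at UUO-7 and after reversal, and by 0.12, 1.02 and 0.69 with library sizes alone. In ECs and PT cells it moved by at most 0.05 in size with TMM. With library sizes alone it moved by -0.06, -0.21 and -0.27 in ECs and by -0.15, -0.36 and -0.41 in PT cells.

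**Figure D4:**
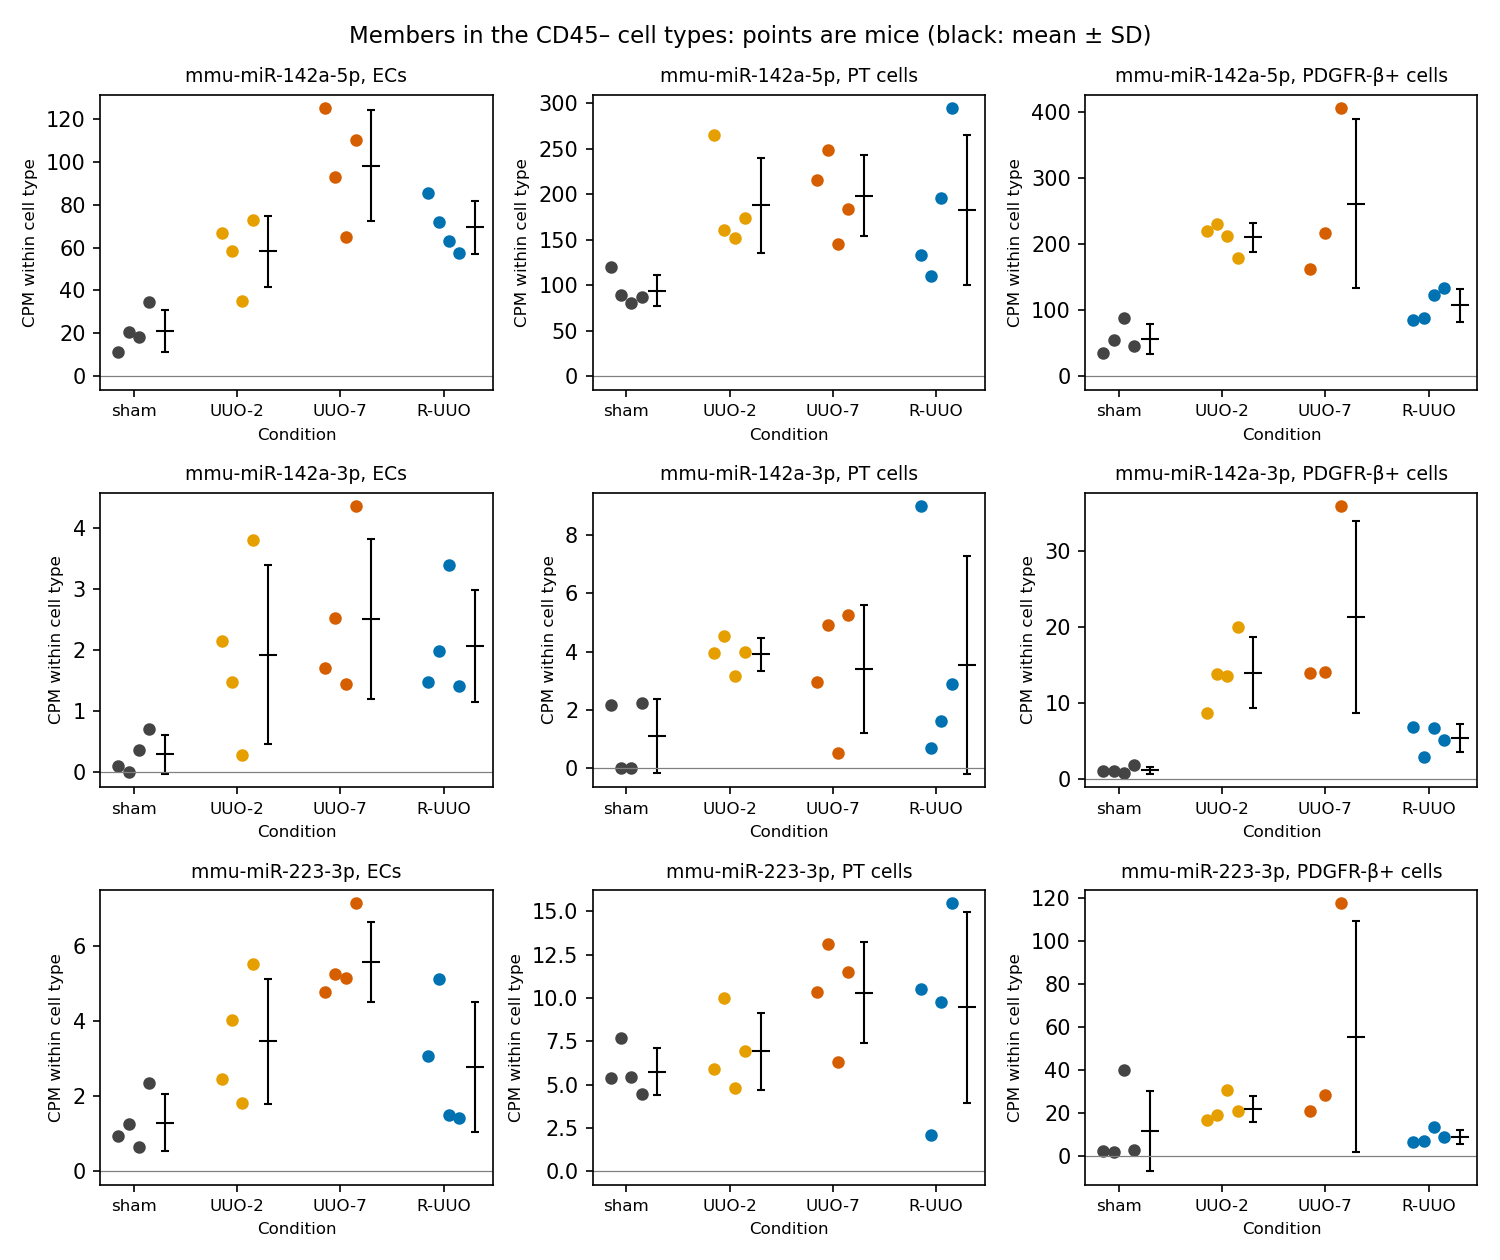
Level of miR-142a-5p, miR-142a-3p and miR-223-3p in ECs, PT cells and PDGFR-β+ cells by condition (CPM scaled within the cell type), 1 point per mouse, with the mean and SD in black and a grey line at 0. miR-142a-5p lies above sham in all 3 cell types at UUO-2 and UUO-7, and 1 sham library of PDGFR-β+ cells has 39.9 CPM of miR-223-3p.

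The macrophage miRNA miR-511 had no higher mean after injury in PDGFR-β+ cells. It summed to 6.60 to 16.0 CPM in sham, 7.05 to 20.4 at UUO-2, 0 to 6.49 at UUO-7 and 0 to 1.27 in R-UUO, and miR-511-3p fell by 2.78 on the log2 scale at UUO-7 (FDR 0.037). In sham, miR-511-3p was at a median of 9.70% of the Mac level of the same mouse, against 0.161% for miR-142a-5p. The median of miR-142a-5p reached 1.03% at UUO-2 and 1.70% at UUO-7. At UUO-2, a rise of miR-511 by such a share of its Mac level would not have been detectable beside its sham level. At UUO-7 that level was no longer present in every library. The sum of miR-511 was 6.49, 0 and 0.482 CPM in replicates 2, 4 and 5, beside 127, 156 and 219 in the Macs of the same mice. Whether a share of Mac RNA entered these libraries was not tested. miR-150 stood at 11.1 to 73.9 CPM in all these libraries. The stromal miR-214-3p (0.90, 3.06 and 2.75) and a locus of miR-199a-5p (0.90, 2.39 and 2.72) rose at all 3 times, while miR-143-3p fell by 1.48 at UUO-7 and by 1.76 in R-UUO, with miR-145a-5p, miR-126a and miR-192-5p falling at both times. In PT cells miR-150 summed to 11.8 to 150 CPM, and miR-150-5p rose in R-UUO by log2 1.45 (FDR 0.048). Of the list of 14 leukocyte miRNAs, 7 of the 11 tested rose and 1 fell in PDGFR-β+ cells at UUO-7, led by miR-155-5p (5.63), miR-146b-5p (5.16) and miR-21a-5p (4.97). At UUO-2, at UUO-7 and after reversal, 4, 7 and 8 rose and 0, 1 and 2 fell in these cells, with medians of 0.93, 1.58 and 2.32. In ECs 4, 7 and 6 of 11 rose and 0 fell (medians 0.43, 1.37 and 1.34), and in PT cells 4, 6 and 6 of 8 rose and 0 fell (medians 1.38, 1.57 and 1.51). Over all loci, 27, 162 and 133 of 477 rose in PDGFR-β+ cells and 3, 68 and 66 fell. In ECs 7, 29 and 55 of 469 loci rose and 1, 25 and 24 fell. Of the 330 loci in PT cells, 49, 84 and 85 rose and 14, 58 and 43 fell. miR-150 and miR-511 are in the list of 14 and among the markers, and the part of the markers in the members' changes was not tested.

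Set against the Macs of the same mouse, the level of the members in the other cells was small throughout. In ECs the median of miR-142a-5p was 0.0885% of the Mac level in sham, and 0.341% (UUO-2), 0.840% (UUO-7) and 0.498% (R-UUO) after injury. In PT cells it was 0.210, 0.670, 1.06 and 0.662%, and in PDGFR-β+ cells 0.161, 1.03, 1.70 and 0.690%. For miR-142a-3p in PDGFR-β+ cells the medians were 0.183, 1.72, 4.78 and 1.13%, and for miR-223-3p 0.158, 1.36, 3.10 and 1.21%. The Mac level in the denominator changed with the condition as given above.

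The arm ratio of miR-142a was compared between the cell types of a mouse with a 2-sided paired sign-flip permutation test, exact over mice, and p adjusted over the 6 ratios tested. PDGFR-β+ cells had relatively more of the 3p arm than the Macs of the same mice, by log2 0.70 (SE 0.22, higher in 12 of 15 mice, permutation p = 0.0089, adjusted 0.042). The mean difference was 0.19 in sham, while it was 0.57 at UUO-2, 1.75 at UUO-7 (1.51 to 2.21 over the 3 mice) and 0.56 in R-UUO. The UUO-7 libraries of PDGFR-β+ cells had 11.7, 15.4 and 11.3 reads of miR-142a-5p per read of miR-142a-3p. PT cells had relatively less of the 3p arm (log2 -0.76, higher in 5 of 16 mice, adjusted permutation p = 0.042), on 0 to 12 reads of it, and ECs differed by -0.37 (adjusted permutation p = 0.30). Both adjusted values rose above 0.05 when any of 11 of the 16 mice was left out. The ratio of miR-223-3p to miR-142a-3p differed from that of Macs by log2 0.06 (ECs), 0.37 (PT cells) and 0.01 (PDGFR-β+ cells), with SE of 0.30, 0.28 and 0.33 and adjusted permutation p of 0.99, 0.30 and 0.99.

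The change with injury was then compared between cell types within one fit. For miR-142a-5p, the change in ECs exceeded that in Macs by log2 1.89, 3.19 and 2.46 (UUO-2, UUO-7, R-UUO), that in PT cells by 1.62, 2.25 and 1.83, and that in PDGFR-β+ cells by 2.45, 3.32 and 1.84, and all 9 differences were called. For miR-142a-3p, 6 of 9 were called, the largest in PDGFR-β+ cells at UUO-7 (5.20). For miR-223-3p, 2 of 9 were called, in ECs (2.77) and PDGFR-β+ cells (2.99) at UUO-7, and for miR-223-5p 0 of 9. In PDGFR-β+ cells this test of miR-223-3p includes sham replicate 3.

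Over all loci, such differences from Macs were called at UUO-2 for 6.71% (ECs), 11% (PT cells) and 8.79% (PDGFR-β+ cells). The shares were 18.2, 27.4 and 20.4% at UUO-7 and 13.3, 17.9 and 21.2% in R-UUO. In PT cells at UUO-7 the count of members called was 2 and went to 1 when any of 12 of the 16 mice was left out, with miR-142a-3p at an FDR of 0.044 on 0 to 12 reads. With the mouse as a replicate block, 1 further difference was called, that of miR-223-3p in ECs in R-UUO (2.16, FDR 0.039, against 2.08 and 0.058 without the block), and the 17 calls of the members were kept.

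**Figure D5:**
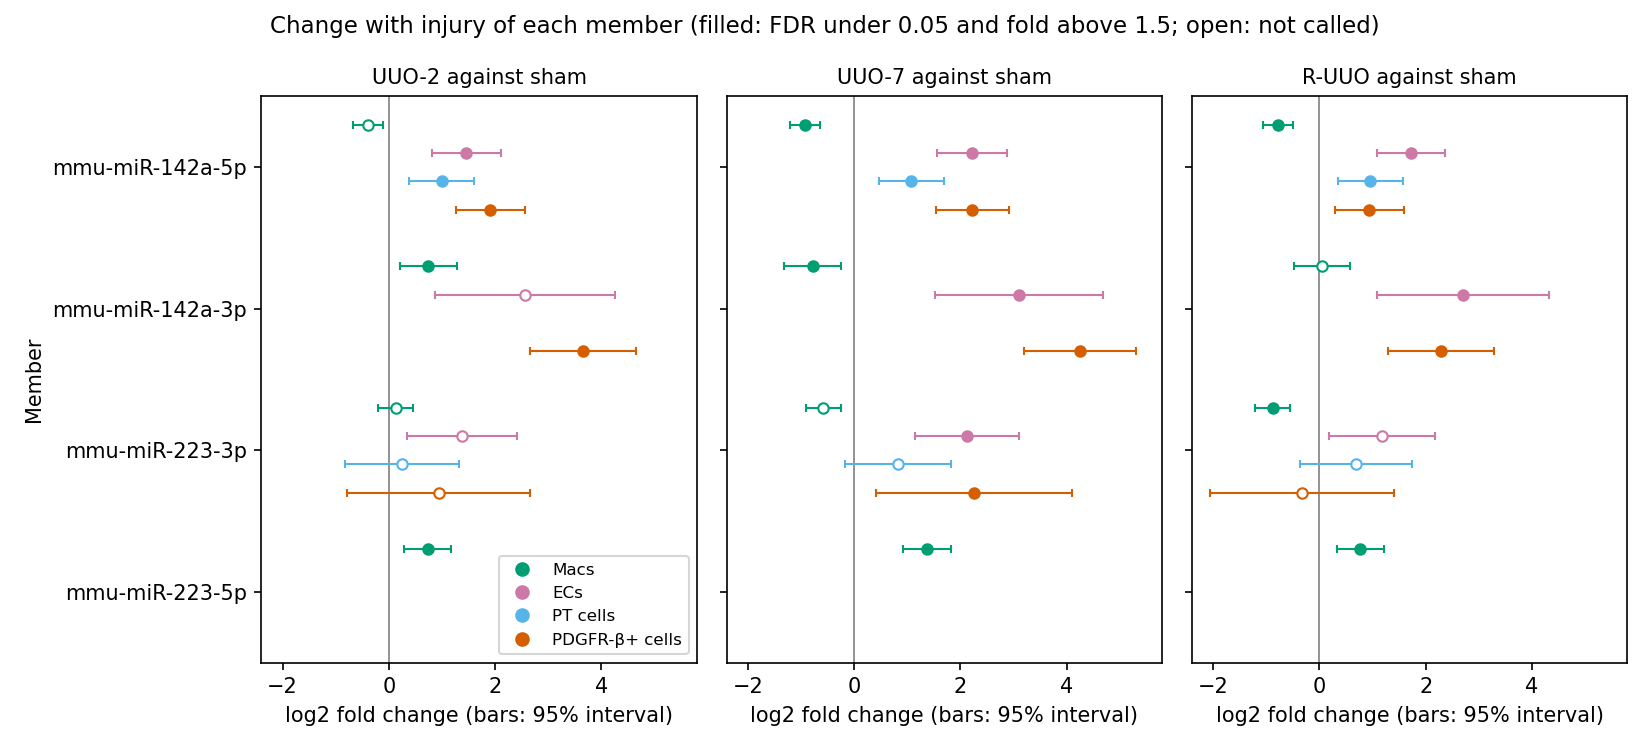
Log2 fold change against sham of each member in each cell type at UUO-2, UUO-7 and R-UUO, with its 95% interval, where filled points were called (FDR under 0.05 and fold above 1.5) and open points were not, and members that did not pass the filter are not drawn. miR-142a-5p lies below 0 in Macs and above 0 in ECs, PT cells and PDGFR-β+ cells at all 3 times.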

How the data were processed

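Per the labels and the study's methods, RNA of sorted cells from mouse kidney cortex was sequenced as small RNA. The labels gave each library its cell type, condition and replicate number, and this number was read as the mouse within a condition. The authors checked reads with FastQC, removed adapters with Trim Galore 0.4.1 and Cutadapt 1.1, used ShortStack with Bowtie for alignment to GRCm38 and annotation from miRBase, and deposited raw read counts per locus of a mature miRNA, neither normalized nor pooled. How reads that map to several loci were placed, and whether strand was used, is not given in the sources used here. Such reads could move between loci of one name, but each member has 1 locus.

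The counts were analysed with edgeR 4.0.16 (limma 3.58.1, R 4.3.3), loci being kept by filterByExpr and scaled by TMM. Changes with injury were tested by its quasi-likelihood test in 1 fit per cell type, and differences between cell types and between changes over all 63 libraries, with Benjamini-Hochberg adjustment over all loci tested. Calls required an FDR under 0.05 and a fold change above 1.5. Log2 CPM for correlations used a prior count of 2, and log2 ratios within a library a pseudocount of 0.5. Ratios were tested by exact permutation over mice (Python 3.11.15, scipy 1.17.1). DESeq2 1.42.0 was an alternative. The other alternatives were library size only, DESeq2's size factors, no filter, only the compared groups, a replicate block, overlapping opposite-strand rows left out (53), a pseudocount of 1 and each replicate or mouse left out. Other TMM reference libraries were added after seeing the data.

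Libraries of one condition with the same number were taken as one mouse across cell types, and equal numbers in different conditions as different mice. Deviations from the group means correlated over 93 pairs of the same mouse with a median of 0.049 (-0.295 to 0.267), and over 74 pairs of equal number and different condition with a median of -0.017. In simulated counts for Macs at UUO-7, the test called 128 of 198 loci given a log2 change of 1, beside 1 unchanged locus, and for Macs against ECs 182 of 185 given a change of 2. The difference of changes between ECs and Macs was called at 111 of 179 loci given 2, beside 2 unchanged loci. The members, gene lists and tests were chosen with earlier results of these data known. Named by rule were the 4 members, the 3 loci most correlated with each, the called loci of a leukocyte list in Macs, and markers where a result turns on them. Whole-tissue libraries and the library the authors removed were not analysed here.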

Additional observations from a re-analysis of the deposited data

Results flagged for a closer look

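In groups of 4 libraries, 5 of 60 had a library standing apart from the other 3 by Dixon's criterion (the gap to the nearest as a share of the range, at the 95% level). Chance gives about 1 in 20 for normally distributed values, which counts near 0 are not, so that 5 of 60 cannot be set against it. Where the other 3 libraries are at 0, the share is 1.0 by construction. The largest of the 5 by level was miR-223-3p in sham PDGFR-β+ cells, with 39.9 CPM in replicate 3 and 2.17 to 2.80 in the others. The rest are miR-223-5p at few reads. It was at 0.118 CPM in sham EC replicate 4 (others 0), 1.51 in R-UUO EC replicate 4 (others at most 0.114), 1.28 in sham PT replicate 2 (others 0) and 1.21 in sham PDGFR-β+ replicate 2 (others 0).

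The change with injury differed between Macs and another cell type in 17 of 36 tests of the difference itself (edgeR's quasi-likelihood test with Benjamini-Hochberg adjustment). At UUO-2 these were miR-142a-5p in ECs (1.89, FDR 0.000439), PT cells (1.62, FDR 0.0023) and PDGFR-β+ cells (2.45, FDR 2.12e-06), and miR-142a-3p in PDGFR-β+ cells (3.07, FDR 0.000793), all log2 differences from the change in Macs. At UUO-7 they were miR-142a-5p in ECs (3.19), PT cells (2.25) and PDGFR-β+ cells (3.32), miR-142a-3p in the same order (3.95, 2.52 and 5.20), and miR-223-3p in ECs (2.77) and PDGFR-β+ cells (2.99). Within PT cells miR-142a-3p did not pass the filter. In R-UUO they were miR-142a-5p in ECs (2.46), PT cells (1.83) and PDGFR-β+ cells (1.84), and miR-142a-3p in ECs (2.58) and PDGFR-β+ cells (2.36).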

How the results depend on the processing

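The higher level of all 4 members in Macs than in each other cell type, and in each condition, was called under every alternative and without any mouse. Of the other values, the replicate numbers as a block (equal numbers in different conditions are different mice) changed these results. With that replicate block, 0 members were called in Macs for R-UUO against UUO-7 (miR-142a-3p 0.66, miR-223-5p -0.62), miR-142a-3p at UUO-7 was -0.57 (FDR 0.069), 0 were called in PT cells in R-UUO, miR-223-3p in PDGFR-β+ cells in R-UUO was 1.01, and the difference of miR-223-5p between PDGFR-β+ and PT cells -0.019. The cause was not tested here or for the values that follow.

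With library size only, 0 members were called in PT cells at UUO-2, UUO-7 and R-UUO, 1 in Macs for R-UUO against UUO-7 (miR-142a-3p 0.59, miR-142a-5p -0.10), 4 for PT cells against ECs, and 0 (UUO-2) and 1 (UUO-7) for the difference of change between PT cells and Macs (miR-223-3p at UUO-2 -0.21). miR-142a-3p in Macs in R-UUO was -0.065, and PDGFR-β+ cells differed from PT cells by -0.25 (miR-142a-5p) and -0.38 (miR-223-5p). DESeq2 called 2 members in ECs at UUO-2 and 2 for PT cells against ECs, and gave -0.64 for miR-223-3p in Macs at UUO-7, -0.020 for miR-142a-3p in R-UUO and -0.073 for miR-223-5p between PDGFR-β+ and PT cells. DESeq2's size factors gave 1 call in Macs for R-UUO against UUO-7 (miR-223-5p -0.60), 1 in PDGFR-β+ cells in R-UUO, and in Macs -0.64 for miR-223-3p at UUO-7 and -0.019 for miR-142a-3p in R-UUO. Without the filter there were 2 calls in ECs at UUO-2 and 2 for PT cells against ECs, and in Macs -0.70 for miR-223-3p at UUO-7, -0.11 for miR-142a-3p and 0.57 for miR-223-5p in R-UUO. Only the compared groups in the fit gave 0 calls for R-UUO against UUO-7 in Macs (miR-142a-3p 0.73, miR-223-5p -0.66) and PDGFR-β+ cells and 0 in PT cells in R-UUO, and in Macs -0.72 for miR-223-3p at UUO-7 and 0.73 for miR-223-5p in R-UUO. Leaving out overlapping rows gave 1 call in Macs at UUO-2 (miR-142a-3p 0.62), -0.73 for miR-223-3p at UUO-7 and -0.11 for miR-142a-3p in R-UUO, and the second TMM reference 1 call at UUO-2 (miR-142a-3p 0.64), -0.72 and -0.094. With a pseudocount of 1, the miR-142a ratio was -0.38 in PT cells at UUO-7 and -0.47 for PT cells against Macs (adjusted permutation p = 0.20), and the ratio of miR-223-3p to miR-142a-3p -0.056 (ECs) and -0.026 (PDGFR-β+ cells) against Macs.

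Leaving out 1 library or mouse, the calls ranged from 0 to 1 in ECs at UUO-2, Macs at UUO-2, PT cells at UUO-2 and in R-UUO and for the difference of change between PT cells and Macs at UUO-2, from 0 to 2 for R-UUO against UUO-7 in Macs and PDGFR-β+ cells, from 1 to 3 in PDGFR-β+ cells in R-UUO, and from 1 to 2 for PT cells against ECs and for PT cells and Macs at UUO-7. In Macs, UUO-2 gave -0.62 to -0.43 (miR-142a-5p), 0.49 to 0.69 (miR-142a-3p), 0.53 to 0.59 (miR-223-5p) and -0.086 to 0.064 (miR-223-3p), UUO-7 -0.80 to -0.71 (miR-223-3p), R-UUO -0.25 to 0.15 (miR-142a-3p) and 0.32 to 0.80 (miR-223-5p), and R-UUO against UUO-7 0.70 to 1.11 (miR-142a-3p) and -0.88 to -0.40 (miR-223-5p). R-UUO against UUO-7 gave -0.68 to 0.036 for miR-142a-3p in ECs and -0.45 to 0.059 (miR-142a-5p) and -0.49 to 0.20 (miR-223-3p) in PT cells, and miR-223-3p in PDGFR-β+ cells in R-UUO -0.71 to 1.85. PT cells against ECs gave -0.035 to 0.38 (miR-142a-3p) and PDGFR-β+ against PT cells -0.089 to 0.40 (miR-223-5p). The difference of change of miR-223-5p from Macs was -0.32 to 3.51 (PT cells) and -0.058 to 4.26 (PDGFR-β+ cells) at UUO-2 and -0.24 to 3.99 in R-UUO (PDGFR-β+ cells). Mac ratios gave 1.06 to 1.31 at UUO-2 and -0.026 to 0.29 at UUO-7 for the miR-142a arms, -0.66 to -0.53, -2.02 to -1.81 and -1.91 to -1.42 for the miR-223 arms in time order, and for miR-223-3p over miR-142a-3p -0.75 to -0.56 (UUO-2), -1.01 to -0.79 (R-UUO) and -1.26 to -0.96 (R-UUO against UUO-7). The adjusted exact permutation p of the Mac ratios called with all mice rose above 0.05 in 3 to 8 of 8 such fits, to at most 0.098. The miR-142a ratio of R-UUO against UUO-7 was -0.079 to 0.47 in ECs and -0.36 to 0.67 in PT cells, that of PT cells -0.28 to 0.69 at UUO-7 and -0.24 to 0.86 in R-UUO, and miR-223-3p over miR-142a-3p -0.70 to 0.053 (PT cells, R-UUO against UUO-7) and -1.52 to 0.10 (PDGFR-β+ cells, UUO-7). Against Macs of the same mice the miR-142a ratio was -0.86 to -0.65 (PT cells) and 0.59 to 0.85 (PDGFR-β+ cells), and the other ratio -0.14 to 0.18 in ECs and -0.30 to 0.089 in PDGFR-β+ cells.

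Depth limits miR-142a-3p and miR-223-5p in ECs and PT cells, where groups held as few as 11 and 1 reads (ECs) and 4 and 1 (PT cells), and miR-223-3p, with as few as 49 and 21. Without the filter, miR-223-5p in ECs at UUO-7 had a log2 change of 4.33 (FDR 0.028) on 19 reads against 1 in sham.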
